A study of Rattus norvegicus with 6 samples.

Results

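The adrenergic receptors are the cell surface receptors for noradrenaline and adrenaline, and the 8 receptor genes described here are *Adra1a*, *Adra1b* and *Adra1d* (α1 receptors), *Adra2a*, *Adra2b* and *Adra2c* (α2 receptors), and *Adrb1* and *Adrb3* (β receptors). They were picked by gene symbol from the 38445 genes counted in each library, and all 8 were found. Measured values were not part of the rule that picked them, but earlier results of these data were known. Transcripts were measured by RNA-seq in the amygdala of adult male Sprague Dawley rats, labelled WT (wild type). Control rats received saline, and ethanol rats received a single dose of 1 g/kg, both by intraperitoneal injection, and the tissue was taken 1 h later. Total RNA of 2 rats was pooled for each library, so that 6 control rats gave 3 control libraries and 6 ethanol rats gave 3 ethanol libraries. A library is therefore a mean of 2 animals, and the dissected tissue held the central, medial and basolateral nuclei together.

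Noradrenaline reaches the amygdala mainly through axons whose cell bodies lie in the brainstem. The α1 receptors couple to Gq and phospholipase C, the α2 receptors couple to Gi and Go and act both on noradrenergic terminals, as autoreceptors, and on other neurons, and the β receptors couple to Gs and raise cyclic AMP. In the amygdala, β1 and α1 signalling is known for its part in arousal and emotional memory, and α2 agonists reduce noradrenaline release.

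The α2 receptors *Adra2c* and *Adra2a* were the most abundant transcripts of the family per length of exon, and *Adra2b* and *Adrb3* rested on few reads. Levels between genes are compared here as RPKM, that is CPM (the count of a gene scaled to the size of its library, with TMM factors) divided by the exonic length of the counted gene model in kilobases. *Adra2c* had a mean of 12.8 ± 1.05 RPKM (SD over the 6 libraries) and *Adra2a* of 11.7 ± 2.09. They were followed by *Adrb1* at 5.33 ± 0.646, *Adra1d* at 4.01 ± 2.30, *Adra1a* at 3.41 ± 0.264 and *Adra1b* at 2.14 ± 0.172 RPKM. *Adra2b* reached 0.110 ± 0.0353 RPKM and *Adrb3* 0.0787 ± 0.0434 RPKM, so that *Adra1b* stood 19.4-fold above *Adra2b*. In this order the ranges of *Adra2c* and *Adra2a* overlapped, although *Adra2c* was the higher of the pair in 5 of 6 libraries. *Adra1d* ran from 2.02 to 7.30 RPKM and so overlapped *Adrb1*, *Adra1a* and *Adra1b* (1.91 to 2.33 RPKM), and the ranges of *Adra2b* and *Adrb3* overlapped too. *Adra1d* was above *Adra1a* in only 2 of 6 libraries, control library 2 and ethanol library 2, so its higher mean rests on these. *Adra2a* was above *Adrb1*, *Adra1a* above *Adra1b*, and *Adra1b* above *Adra2b* in each of the 6 libraries, with no overlap. Of the summed RPKM of the 8 genes, the α2 receptors held 57.2% to 64.3% per library, the α1 receptors 20.5% to 30.0% and the β receptors 12.8% to 15.2%. A level per kilobase rests on the gene model, and the models of *Adrb1* (1401 bases) and *Adra2c* (1704 bases) are short single exons, so reads from transcript ends beyond them were not counted.

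**Figure D1:**
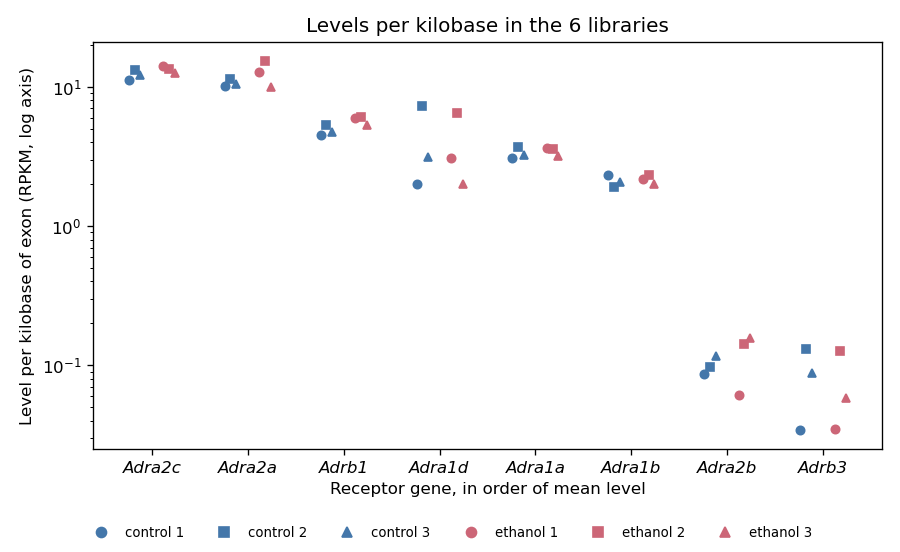
Level per kilobase of exon (RPKM, log axis) of the 8 receptor genes, ordered by mean level, with 1 point per library (blue, control; red, ethanol; marker shape, replicate number). *Adra2c* and *Adra2a* lie highest, *Adra1d* spreads from 2.02 to 7.30 RPKM, and *Adra2b* and *Adrb3* lie below the other 6 genes in every library.

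Promoter windows, 250 bases before to 50 bases after the annotated start, were available from RefSeq (build GRCr8) for 6 of the 8 genes. *Adra1a* and *Adrb3* had none. The windows of *Adra2c* and *Adrb1* are shown because these transcripts ran together across the libraries, and that of *Adra1d* because its level varied most among the 6 receptors above 1 CPM in every library. Capitals mark the GC box (GGGCGG) and the core of the cyclic AMP response element (TGACG), each searched on both strands. The *Adra2c* window is chr14:79697427-79697726, minus strand, the *Adrb1* window is chr1:265776853-265777152, plus strand, and the *Adra1d* window is chr3:139262282-139262581, minus strand.
Adra2c: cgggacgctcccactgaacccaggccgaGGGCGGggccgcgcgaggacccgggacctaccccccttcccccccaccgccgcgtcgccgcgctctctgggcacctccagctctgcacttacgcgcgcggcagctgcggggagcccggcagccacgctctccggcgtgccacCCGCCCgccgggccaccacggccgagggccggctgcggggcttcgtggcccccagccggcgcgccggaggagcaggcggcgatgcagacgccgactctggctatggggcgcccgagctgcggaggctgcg
Adrb1: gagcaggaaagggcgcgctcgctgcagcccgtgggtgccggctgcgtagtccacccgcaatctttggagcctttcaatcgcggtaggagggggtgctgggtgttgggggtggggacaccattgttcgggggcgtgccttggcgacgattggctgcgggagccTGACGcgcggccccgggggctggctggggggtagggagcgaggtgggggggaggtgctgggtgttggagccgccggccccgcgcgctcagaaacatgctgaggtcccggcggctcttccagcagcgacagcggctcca
Adra1d: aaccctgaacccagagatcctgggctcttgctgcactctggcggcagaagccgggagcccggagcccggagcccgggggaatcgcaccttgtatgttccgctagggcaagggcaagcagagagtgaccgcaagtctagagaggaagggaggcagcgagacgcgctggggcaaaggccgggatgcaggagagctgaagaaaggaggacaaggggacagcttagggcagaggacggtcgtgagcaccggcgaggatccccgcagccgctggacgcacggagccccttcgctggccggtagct
The *Adra2c* window had 79% G or C and 43 CG dinucleotides, more than 97.9% of the 33469 windows of the same length, whose median was 7. The *Adrb1* window held 28 CG dinucleotides and the *Adra1d* window 22, and *Adra2a*, *Adra2b* and *Adra1b* held 25, 28 and 32. *Adra2c* had 2 GC boxes, starting at -222 and -80 with the start site as 0. *Adra2b* also had 2, at -98 and -69, *Adra1b* had 1, at 8, and the other 3 windows had 0. A GC box was present in 33.1% of all windows. *Adrb1* had a response element core at -88, a match found in 21.2% of all windows, and none of the other 5 windows held one. The letters of a TATA box (TATAAA, in 14.2% of all windows), an E-box (CACGTG, in 6.42%) and a glucocorticoid response element (GNACANNNTGTNC, in 0.439%) were absent from these 6 windows. A match describes letters only, and no binding was measured here.

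Library totals over all genes ran from 62576504 to 70755739 reads, and 3 reads correspond to 0.0424 to 0.0479 CPM, a floor that covers counting error only. The libraries also differed in markers of tissue next to the amygdala. Summed choroid plexus markers (8 genes) lay between 520 and 1124 CPM in the control libraries but at 11.2, 12.9 and 481 CPM in ethanol libraries 1, 2 and 3, and all 8 had a negative log2 fold change. Summed hypothalamic markers (8 genes) ran from 20.4 to 124 CPM in controls and reached 350 CPM in ethanol library 3 against 40.0 and 23.3 CPM in ethanol libraries 1 and 2. Their part in the results below was not tested, and in tissue RNA fewer cells of a type and less RNA per cell cannot be told apart.

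No receptor gene passed the test of ethanol against control. All 8 passed the filter on low counts and were tested with the other genes, 18141 in all, by edgeR's quasi-likelihood test. At an adjusted p below 0.2, the threshold of the study, 0 of the 8 receptors were called, against 0% of all genes tested. At an unadjusted p below 0.05 the count was also 0 of 8, where 1.57% of all genes were higher and 2.58% lower. With edgeR's likelihood ratio test, DESeq2 and limma-voom, 0 of the 8 had an adjusted p below 0.2, where these tools called 0.424%, 0.408% and 0% of all genes. The log2 fold change was positive for 6 of the 8, with a median of 0.10 over the 8, beside 52.6% positive and a median of 0.01 over all genes. In none of the 8 were the 3 ethanol libraries all on the same side of the 3 controls, a separation that 3.65% of all genes showed upward and 5.19% downward. Libraries came from different rats but were single samples of a pool, and with 3 against 3 an exact permutation test cannot give a p below 0.1.

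**Figure D2:**
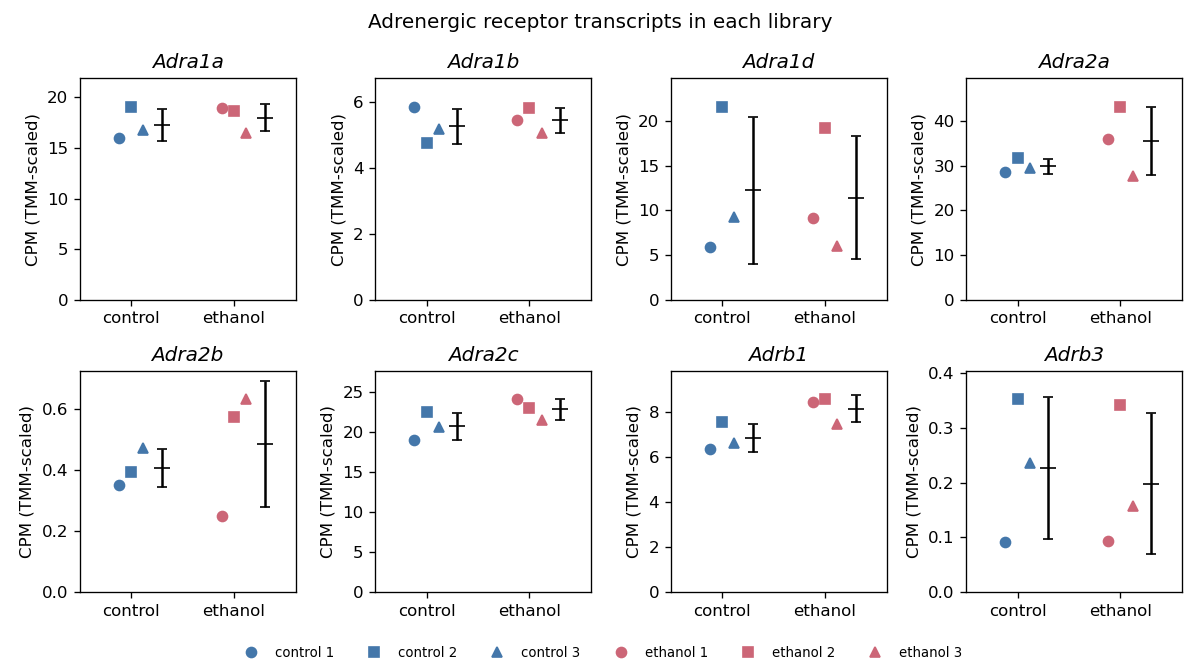
Level of each receptor transcript (CPM, scaled by TMM, axes starting at 0) in the 3 control (blue) and 3 ethanol (red) libraries, with marker shape for the replicate number and a bar for the mean and SD of each group (n = 3). *Adrb1* and *Adra2c* lie slightly higher after ethanol, with overlap, and *Adra1d* is high in control library 2 and ethanol library 2.

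The β1 receptor *Adrb1*, the main β receptor of forebrain neurons, came nearest to a difference. Its gene, *Adrb1* (NCBI gene 24925), is a single exon on the plus strand of chromosome 1, 277537585 to 277538985 in build Rnor_6.0, which the files use throughout. Its level was 6.32, 7.52 and 6.61 CPM in control libraries 1, 2 and 3 and 8.41, 8.53 and 7.43 CPM in ethanol libraries 1, 2 and 3. Ethanol libraries 1 and 2 were above every control, and ethanol library 3 fell just under control library 2. The group means were 6.82 ± 0.627 CPM (SD, n = 3) and 8.12 ± 0.608 CPM (SD, n = 3), which differed by 0.25 on the log2 scale with a standard error of 0.11 and a 95% interval from -7.7e-05 to 0.51. The unadjusted p was 0.0501 and the adjusted p 1.00 by edgeR's quasi-likelihood test, and the 2-sided exact permutation test gave 0.2. Leaving out single libraries kept the log2 fold change between 0.19 and 0.33. The quasi-likelihood p, unadjusted, then ran from 0.0247 (without control library 2) to 0.163 (without control library 1). With all 6 libraries, limma-voom put the unadjusted p at 0.0491, DESeq2 at 0.0562 and edgeR's likelihood ratio test at 0.0827. Scaling by library size alone gave 0.0651 by the quasi-likelihood test. *Adrb3*, the β3 receptor known from fat tissue, lies on chromosome 16 from 69003541 to 69006632. Its reads numbered 6, 25 and 15 in controls 1, 2 and 3, and 6, 22 and 11 after ethanol. These are 0.0918 to 0.352 CPM and 0.0935 to 0.342 CPM, and the ranges of the groups were nearly the same. Its log2 fold change was -0.21 with a 95% interval from -1.55 to 1.13, so changes of more than 2-fold either way lay inside the interval.

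Of the α2 receptors, *Adra2a*, the main autoreceptor of noradrenergic terminals and also a receptor of cortical neurons, had the largest difference in CPM, and it came from 2 of the 3 ethanol libraries. *Adra2a* (NCBI gene 25083) lies on chromosome 1 from 274766283 to 274769083, plus strand, in 1 exon of 2801 bases. It was at 28.5, 31.8 and 29.4 CPM in the controls and at 35.9, 43.1 and 27.8 CPM in ethanol libraries 1, 2 and 3. Ethanol libraries 1 and 2 stood above all controls, and ethanol library 3 stood below them all. The means were 29.9 ± 1.70 CPM (SD, n = 3) and 35.6 ± 7.64 CPM (SD, n = 3), which differed by 0.25 on the log2 scale with a standard error of 0.15 and a 95% interval from -0.09 to 0.59 (edgeR adjusted p = 1.00, and 0.4 by the exact permutation test). Leaving out ethanol library 3, the lowest for *Adra2a*, raised the log2 fold change to 0.40. The unadjusted p was then 0.00381 and the adjusted p 0.324 by edgeR's quasi-likelihood test. In that setting 1629 of 18356 genes had an unadjusted p below 0.05, against 753 of 18141 with all 6 libraries. Leaving out ethanol library 2 lowered the log2 fold change of *Adra2a* to 0.09, with an unadjusted p of 0.473 by the same test.

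*Adra2c*, an α2 receptor enriched in striatal-type neurons, lies on chromosome 14 from 80730307 to 80732010, minus strand, in 1 exon. It was at 19.0, 22.4 and 20.6 CPM in the controls and 24.0, 23.0 and 21.4 CPM in the ethanol libraries. As for *Adrb1*, only ethanol library 3 overlapped the controls, where it lay under control library 2. The log2 fold change was 0.14 with a standard error of 0.08 and a 95% interval from -0.05 to 0.34 (edgeR adjusted p = 1.00, exact permutation p = 0.2). *Adra2b*, the α2 receptor known from the thalamus and blood vessels, lies on chromosome 3 from 119805941 to 119809987 and had 23, 28 and 30 reads in the controls and 16, 37 and 44 in the ethanol libraries. Ethanol library 1 held the fewest reads and ethanol libraries 2 and 3 the most, and its log2 fold change of 0.26 had a standard error of 0.35.

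**Figure D3:**
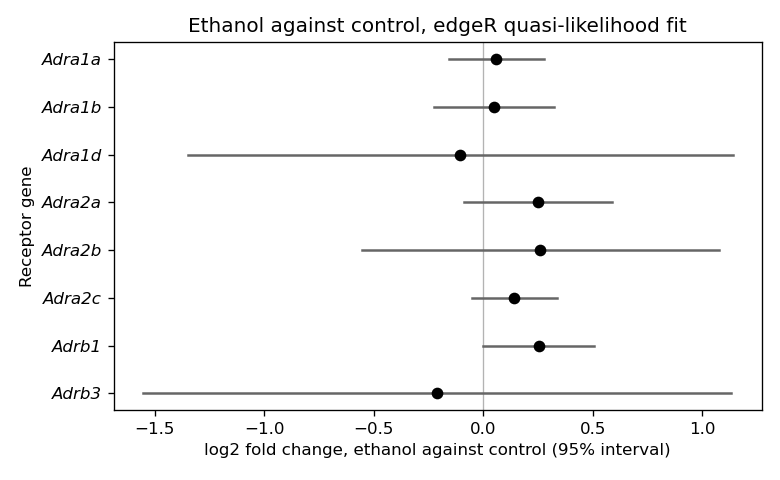
Log2 fold change of ethanol against control for each receptor gene (point) with its 95% interval (line) from edgeR's quasi-likelihood fit. All 8 intervals include 0, and they are widest for *Adra1d*, *Adrb3* and *Adra2b*.

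The α1 receptors showed small differences between the groups, and *Adra1d* showed a wide spread inside both. *Adra1a*, an α1 receptor also prominent in smooth muscle (chromosome 15, 43296997 to 43398314, plus strand) was at 16.0, 19.0 and 16.8 CPM in the controls and 18.9, 18.6 and 16.5 CPM in the ethanol libraries. The ranges of the groups overlapped almost fully, and the log2 fold change was 0.06 with a 95% interval from -0.16 to 0.28. *Adra1b*, an α1 receptor also prominent in liver (chromosome 10, 29392762 to 29450644, minus strand) was at 5.83, 4.76 and 5.16 CPM in the controls and 5.45, 5.80 and 5.04 CPM in the ethanol libraries. Here too the groups overlapped, with a log2 fold change of 0.05 and a 95% interval from -0.22 to 0.32. Its exons share 294 bases with genes on the opposite strand, and the counting used strand. No receptor had exons overlapped on its own strand (0 bases for each of the 8).

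*Adra1d* (NCBI gene 29413, chromosome 3, 124129558 to 124145566, minus strand), an α1 receptor of cortical and hippocampal neurons, was at 5.95, 21.5 and 9.26 CPM in control libraries 1, 2 and 3 and at 9.10, 19.2 and 5.96 CPM in ethanol libraries 1, 2 and 3. Control library 2 and ethanol library 2 stood far above the other 4, and the highest library exceeded the lowest 3.62-fold. The means were 12.2 ± 8.20 CPM (SD, n = 3) and 11.4 ± 6.89 CPM (SD, n = 3), and the log2 fold change of -0.11 had a 95% interval from -1.35 to 1.14. Its SD within the groups, 0.90 on the log2 CPM scale, was larger than that of 99.9% of the 14241 genes that reached 1 CPM in every library, whose median was 0.11. The same SD was 0.23 for *Adra2a*, 0.13 for *Adra1b*, 0.12 for *Adra1a* and *Adrb1*, and 0.10 for *Adra2c*. Without control library 2 the log2 fold change of *Adra1d* turned to 0.58, and without ethanol library 2 it was -0.70.

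Markers of regional neuron types were set beside the receptors, because they too differed between libraries. Summed markers of pallial glutamatergic neurons (8 genes, such as *Slc17a7* and *Neurod6*) were at 1429, 1996 and 1612 CPM in control libraries 1, 2 and 3 and at 1908, 2261 and 1378 CPM in ethanol libraries 1, 2 and 3. The libraries highest in these markers, control 2 and ethanol 2, were also the highest in *Adra1d*, and control 1 and ethanol 3 were the lowest in both. *Adra2a* was likewise highest in ethanol library 2 and lowest in ethanol library 3. All 8 of these markers had a positive log2 fold change with a median of 0.13, and 1 of them, *Tbr1*, had an unadjusted p below 0.05. At the same threshold 4 of the 8 choroid plexus markers were lower, 1 of 8 microglial markers (*Tmem119*) was higher and 1 of 8 endothelial markers (*Kdr*) was lower, beside the 1.57% higher and 2.58% lower of all genes. The study had already reported *Tbr1* as increased and a choroid plexus marker as decreased in its RNA-seq. Because the lists were chosen with earlier results known, these counts are not independent of those reports. The log2 fold change was 0.55 for *Tbr1*, 0.57 for *Tmem119* and -0.43 for *Kdr*. For *Tbr1*, *Tmem119* and *Kdr* the groups did not overlap. Some choroid plexus markers and a thalamic marker also lay lower in every ethanol library than in every control. Over all genes, 3.65% showed such a separation upward and 5.19% downward. No marker passed the adjusted threshold (0 called). Summed oligodendrocyte markers were lowest in control library 2, at 3728 CPM, and highest in ethanol library 3, at 10102 CPM. In ethanol library 2, the highest in pallial markers, they were at 6310 CPM. Striatal-type markers, at 318 to 482 CPM in controls and 363 to 527 CPM after ethanol, were lowest in control library 2 and highest in ethanol library 3. The part of these markers in the receptor values was not tested. As summed levels, astrocyte markers (6212 to 7657 CPM in controls, 6459 to 8728 CPM after ethanol), microglial markers (310 to 344 and 314 to 366 CPM), endothelial markers (250 to 283 and 247 to 277 CPM), mural markers (139 to 177 and 151 to 161 CPM) and thalamic markers (190 to 233 and 191 to 242 CPM) overlapped between the groups.

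**Figure D4:**
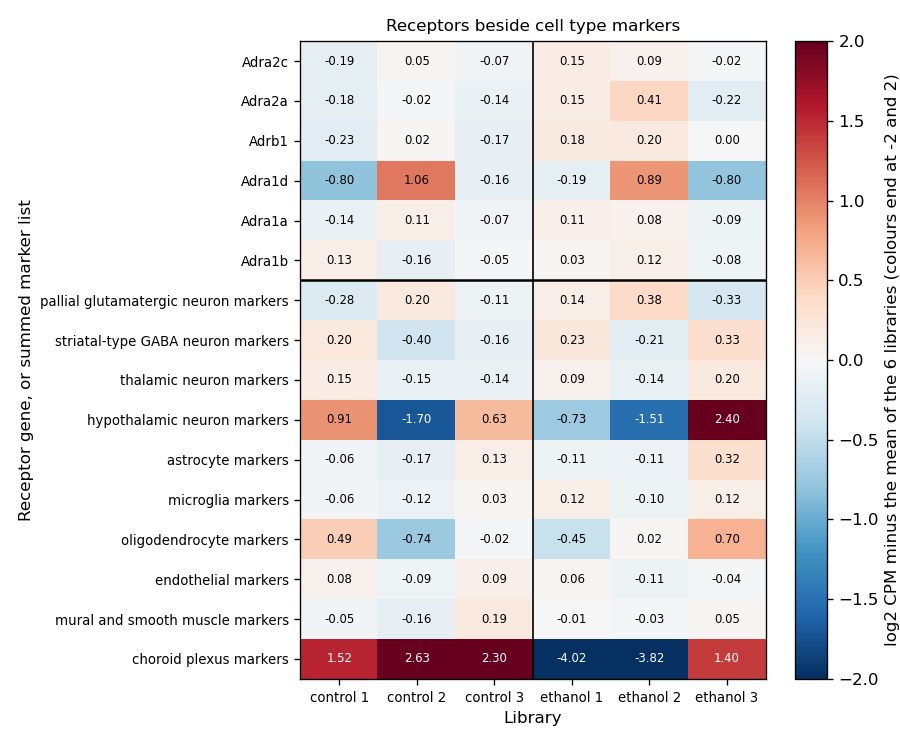
Heat map of log2 CPM minus the mean of the 6 libraries for the 6 well counted receptor genes (top) and for summed marker lists (bottom), with 1 column per library. *Adra1d* and the pallial markers are highest in control library 2 and ethanol library 2, and the choroid plexus markers are low in ethanol libraries 1 and 2.

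The genes that serve these receptors showed no called change. The 4 lists covered the synthesis, packaging, uptake and breakdown of noradrenaline and adrenaline, the G protein α subunits, the receptor kinases with arrestins and RGS proteins, and the effectors. They held 53 genes, of which 51 were tested and 30 had a positive log2 fold change, with a median of 0.04. Over all genes 52.6% were positive, with a median of 0.01. By edgeR's quasi-likelihood test 0 of the 51 had an adjusted p below 0.2 and 0 an unadjusted p below 0.05. Of all genes tested, 0% passed the adjusted threshold, so the lists do not stand apart there. At the unadjusted threshold 1.57% of all genes were higher and 2.58% lower. The groups did not overlap for 2 genes upward (*Gnao1* and *Grk2*) and 1 downward (*Arrb2*), beside the shares of all genes given above.

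Transcripts particular to noradrenergic cells were scarce. *Ddc*, the decarboxylase that dopamine and serotonin neurons also use, had 482 to 665 reads per library (7.60 to 10.2 CPM), but *Dbh*, which converts dopamine to noradrenaline, was between 0.140 and 0.347 CPM, and *Slc6a2*, the noradrenaline transporter, had 1 read in ethanol library 1 and 0 in the other 5 libraries. Of these markers of noradrenergic cell bodies, *Slc6a2* was thus at or near 0. *Dbh* was low, at 9 to 22 reads per library, but above the floor of counting error. *Th*, the rate-limiting enzyme of catecholamine synthesis, was at 2.22, 1.48 and 1.59 CPM in the controls and 1.28, 6.17 and 3.25 CPM in the ethanol libraries, with ethanol library 1 lowest and ethanol library 2 highest. It was named after its values were seen, for its log2 fold change of 1.02 (standard error 0.49, unadjusted p = 0.0732, adjusted p = 1.00 by edgeR's quasi-likelihood test). The vesicular transporter *Slc18a2* was also highest in ethanol library 2, at 5.94 CPM against 1.00 to 2.41 CPM in the other 5. The monoamine oxidases, which break noradrenaline down, were well expressed, with mean levels of 90.3 CPM for *Maob* and 73.4 CPM for *Maoa*, and their log2 fold changes were -0.01 and -0.02.

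Among the G protein α subunits the highest levels were those of *Gnas* (Gs) at 1382 CPM, *Gnao1* (Go) at 521 CPM and *Gnai2* (Gi) at 357 CPM. *Gnao1* was at 507, 513 and 487 CPM in the controls and 530, 567 and 524 CPM in the ethanol libraries, so every ethanol library was above every control, but the difference of 0.11 on the log2 scale had a standard error of 0.07 (edgeR adjusted p = 1.00). *Gnas* and *Gnai2* had log2 fold changes of -0.04 and 0.06, within their standard errors of 0.08 and 0.09. *Grk2*, the kinase that phosphorylates active β receptors, was at 206, 207 and 215 CPM in the controls and 227, 216 and 225 CPM after ethanol, 0.09 higher on the log2 scale with a standard error of 0.06. *Arrb2*, the β-arrestin that binds phosphorylated receptors, was at 59.3, 58.5 and 58.6 CPM in the controls and 55.9, 56.0 and 53.8 CPM after ethanol, with -0.09 as its log2 difference and a standard error of 0.05 (edgeR adjusted p = 1.00 for both). *Arrb1* and *Rgs4* had mean levels of 415 and 208 CPM and log2 fold changes of 0.05 and 0.15. Among the effectors, the adenylyl cyclases *Adcy1* and *Adcy5* and the phospholipase *Plcb1* were the most abundant, with means of 476, 180 and 161 CPM. Their log2 fold changes were 0.08, 0.07 and 0.17, with standard errors of 0.16, 0.07 and 0.09.

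**Figure D5:**
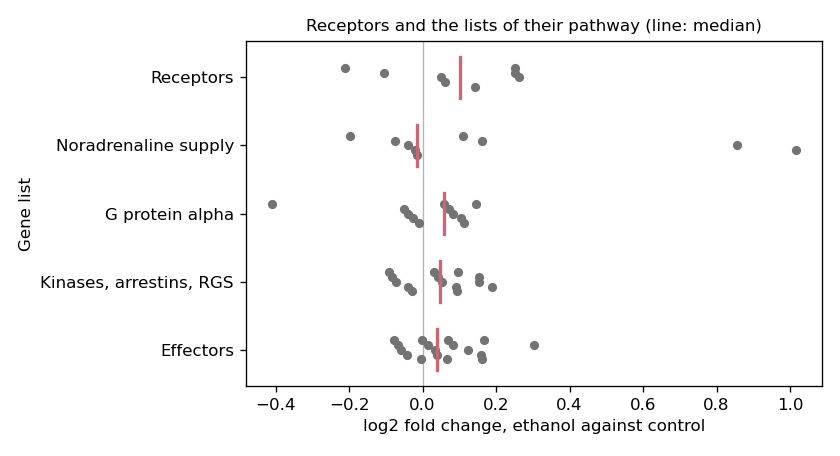
Log2 fold change of ethanol against control for the receptors and for the tested genes of 4 lists of their pathway, with 1 point per gene and a red line at the median. The medians lie between -0.01 and 0.10, and the points furthest right are *Th* and *Slc18a2*.

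Across the 6 libraries, *Adra2c* and *Adrb1* followed each other, with a Pearson correlation of log2 CPM of 0.95, and *Adra1a* correlated with *Adra2c* by 0.90. The genes most like the 3 receptors of highest CPM were taken from the 14240 other genes above 1 CPM. For *Adra2a* these were *Coq2* (0.996), *Atp2a3* (0.994) and *Htra4* (0.992). For *Adra2c* they were *Rap2b* (0.986), *Dlgap4* (0.981) and *Mnt* (0.981), and for *Adra1a* they were *Prkab2* (0.999), *Ankrd27* (0.994) and *Slc38a7* (0.993). For *Adra1d*, examined after its values were seen, they were *Arhgap21* (0.997), *Shisa6* (0.993) and *Nrp2* (0.993). With 6 libraries of 1 tissue, correlations above 0.9 were common, at 501 genes for *Adra2a*, 144 for *Adra2c*, 494 for *Adra1a* and 535 for *Adra1d*, so they describe these libraries only.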

How the data were processed

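RNA-seq was done on 3 control and 3 ethanol libraries, each of RNA pooled from 2 rats. The authors deposited raw counts per gene. Per the file headers and the submitters' processing notes, reads aligned to Rnor_6.0 with STAR 2.7.0f were counted over exons with featureCounts (Subread 1.6.3), reverse stranded, without multi-mapping reads or reads shared between genes, which lowers the values of genes with close copies. Symbols were matched to 29322 of 38445 gene identifiers through a RefSeq table (GRCr8).

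The main test was the quasi-likelihood F test of edgeR 4.0.16 (R 4.3.3) after TMM scaling, on the 18141 genes that filterByExpr retained (minimum count 10, minimum total 15). P-values were adjusted over all of them by the Benjamini-Hochberg method, and the threshold was 0.2, as in the study. Standard errors are the absolute log2 fold change divided by the square root of F. Log2 CPM carries a prior count of 2. The 2-sided exact permutation test goes through 20 arrangements. DESeq2 1.42.0 and limma 3.58.1 (voom), other scalings and filters, a replicate block and leaving out each library were alternatives. The fits were checked on simulated data. P-values measure the spread between pools.

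The members and lists were chosen with earlier results of these data known. *Slc17a7* and *Neurod6* are named as examples of a marker list. The other genes named are the 8 receptors, the 3 of highest mean CPM in each pathway list, any gene of these lists at an unadjusted p below 0.05 (there were 0), and the 3 genes most correlated with each of the 3 receptors of highest mean CPM. *Th*, *Slc18a2*, *Ddc*, *Dbh*, *Slc6a2*, *Arrb2*, the markers *Tbr1*, *Tmem119* and *Kdr* and the genes most like *Adra1d* were added after the values were seen. A gene that this rule names is not reported here.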

Additional observations from a re-analysis of the deposited data

How the results depend on the processing

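The count of receptors called was 0 of those tested under every alternative run, among them an adjusted p below 0.05. The filter of 1 CPM in 3 libraries left 6 receptors to test. Over all genes, the count called was 0 with the quasi-likelihood test, 77 with edgeR's likelihood ratio test and 74 with DESeq2, and it ran from 0 to 83 with 1 library left out (83 without ethanol replicate 3, 4 without ethanol replicate 1). The adjusted p of single receptors lay between 0.324 and 1.00 over the alternatives. *Adra1a*, *Adra2a*, *Adra2b*, *Adra2c* and *Adrb1* kept a positive sign in every alternative that could test them, although *Adra1a* came to 8.4e-05 without control replicate 1 (0.14 without control replicate 2). With 1 library left out, the log2 fold change of *Adra1b* ran from -0.016 to 0.12, that of *Adra1d* from -0.70 to 0.58 and that of *Adrb3* from -0.84 to 0.27, and these were the signs that turned. *Adra2a* ran from 0.09 to 0.40, *Adra2c* from 0.08 to 0.20 and *Adra2b* from 0.02 to 0.57. The order of levels per kilobase differed for 0 to 2 receptors, the latter without control replicate 2, where *Adra1d* and *Adra1a* changed places. Control library 2 held the highest *Adra1d* level, 7.30 RPKM, and without it the means were 3.354 RPKM for *Adra1d* and 3.356 RPKM for *Adra1a*. Why *Adra1d* was high in that library was not tested. The median log2 fold change of all genes was 0.01 with TMM and -0.02 with library size alone.

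Replicate numbers are shared between the groups, but a number marks no shared animal. Over 14241 genes, the libraries' departures from their group mean correlated by 0.0264, 0.388 and 0.211 for numbers 1, 2 and 3, and control 1 correlated best with ethanol 3 (0.305), so the numbers were not taken to pair the libraries. With the replicate block, 0 genes and 0 receptors were called, and the log2 fold change of *Adrb1* was 0.25 (unadjusted p = 0.0418, edgeR adjusted p = 0.864).

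*Adrb3* and *Adra2b* had 6 to 44 reads per library, and their values also varied between libraries of a group, with a coefficient of variation of up to 65.2% for *Adrb3* and 42.5% for *Adra2b*. All tests rest on 3 libraries per group.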
